A study of Homo sapiens with 12 samples.

Results

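Genes of the proteasome were followed over 12 expression arrays of 3 human lymphoma lines under 4 treatments. The members are all genes whose symbol begins with PSMA, PSMB, PSMC, PSMD, PSME or PSMG and a digit, without PSMB8, PSMB9 and pseudogenes, so they were chosen by name and not by a measured value. They came to 43 of the 18239 genes that had a probe set of their own, and 41 of them were among the 13120 genes tested. Of these 41, 14 are subunits of the 20S core particle, 14 of the 19S regulatory particle, 7 are assembly chaperones, and 4 are activators that cap the core. PSMC3IP and PSME3IP1 fit the letters of the rule but are partner proteins and no subunits, and they are described apart. PSMA8, the testis form of an alpha subunit, lay between 3.19 and 3.79 on the log2 scale over the 12 arrays, and PSMB11, the beta subunit of the thymic cortex, between 3.69 and 4.11. Both stayed under the filter level of 4.20 on every array and were not tested. PSMB10, PSMC5, PSMD7 and PSMD13 had no probe set that carries the gene alone and are not analysed here.

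OCI-LY3, OCI-HBL1 and OCI-LY10 are established lines of the activated B cell-like form of diffuse large B cell lymphoma, a tumour that lives on chronic NF-kB signalling. Each line gave 1 Control array, 1 array of cells given 500 nM CPI203, 1 of cells given 50 µM IRAKi and 1 of cells given both at these doses (Combo). Each group therefore holds 3 arrays, and the line is the replicate. CPI203 blocks the BET bromodomain proteins, which read acetylated chromatin. IRAKi is an inhibitor of the IRAK kinases that signal below MYD88, and the labels do not name the compound or say what the Control cells received. Per the sample labels, the IRAKi arrays were taken at 6 h and all others, Control included, at 24 h; the protocol text has 18 h of CPI203 and 6 h of IRAKi. In the comparison of IRAKi with Control the agent and the labelled time cannot be told apart. Nothing in the labels describes repeated cultures of a line, so the p-values measure the spread between these lines and arrays. In bulk RNA, fewer cells of one state and less RNA per cell cannot be told apart.

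The proteasome is the protease that breaks down most short-lived and ubiquitin-tagged proteins. Its 20S core is a barrel of alpha and beta rings, with the active sites on the inner face of some beta subunits. The 19S particle binds the ubiquitin chain, removes it, and unfolds the substrate with a ring of ATPases before it enters the core, and core and 19S particle together form the 26S proteasome. Dedicated chaperones that are not part of the finished complex bring the rings together. In B cells the proteasome degrades the inhibitors of NF-kB and yields the peptides shown on MHC class I.

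The deposited values are log2 levels, and a change below is a difference of log2 levels from a model with treatment and cell line as terms. The 12 arrays had medians between 4.64 and 4.74 and correlated pairwise at 0.923 to 0.991. The 5 B cell markers and the 3 markers of the activated B cell-like type were above the filter level on 12 of 12 arrays. Among 6 T cell and myeloid markers the highest level on any array was 4.82. EPCAM, an epithelial gene, was at 5.33 to 6.92 on the 4 OCI-HBL1 arrays and KRT8, a keratin, at 5.93 to 6.82 on the 4 OCI-LY10 arrays, and their part in the differences between lines was not tested. The array's control probe sets for poly-A spike-in RNAs read higher than in the Control of the same line, by 0.31 ± 0.17 under CPI203, by 0.23 ± 0.04 under IRAKi and by 0.48 ± 0.26 under Combo (SD, n = 3). Scaled to these spike-ins, the median gene moved by -0.30, -0.23 and -0.49, so all changes are given relative to the typical gene of an array. Probe sets of the array that should bind nothing averaged 4.00 on the OCI-LY10 IRAKi array and 3.64 to 3.79 on the other 11.

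Of the 41 tested members, 29 passed the test in no treatment comparison, and 28 of these are among the 39 with a role in the proteasome. The same count was not made over all genes, so it shows nothing particular to the members, and the shares of single comparisons are given below. The assembly chaperones made up 3 of the 5 members that changed with CPI203 and 6 of the 12 that changed with Combo. With Combo the core chaperone PSMG4 fell by 1.17 (SE 0.22), the catalytic subunit PSMB5 fell by 0.60 (SE 0.10) and the 19S chaperone PSMD10 rose by 0.67 (SE 0.10), each with n = 3. A gene was called where limma's p was below 0.05 after Benjamini-Hochberg adjustment across all 13120 genes. With CPI203, 2 members rose and 3 fell, 12.2% of the 41 beside 13.1% of all genes tested. With Combo, 3 rose and 9 fell, 29.3% of the members beside 32.1% of all genes. With IRAKi 0 of 41 were called beside 0.168% of all genes. In that comparison 7 members had an unadjusted p below 0.05, beside 2018 of all 13120 genes. There limma's trend and robust estimation called 2 members, beside 1.68% of all genes. Scaled to the spike-ins, 0 members rose and 4 fell with CPI203, and 0 rose and 30 fell with Combo; over all genes that scaling turned 908 risen and 815 fallen into 165 and 1595 with CPI203, and 2023 and 2191 into 513 and 5644 with Combo. The median size of the members' changes was 0.20 with Combo against 0.29 over all genes, 0.10 with CPI203 against 0.21, and 0.10 with IRAKi against 0.16. Of the 41, 8 were beyond 0.5 in size with Combo (30.8% of all genes), 3 with CPI203 (18.2%) and 2 with IRAKi (7.86%). The median signed change with Combo was -0.12 for the members and 0.00 for all genes. All 5 members called with CPI203 were also called with Combo in the same direction, in comparisons that share the Control arrays. This overlap was not counted over all genes, so it shows nothing particular to the members.

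**Figure D1:**
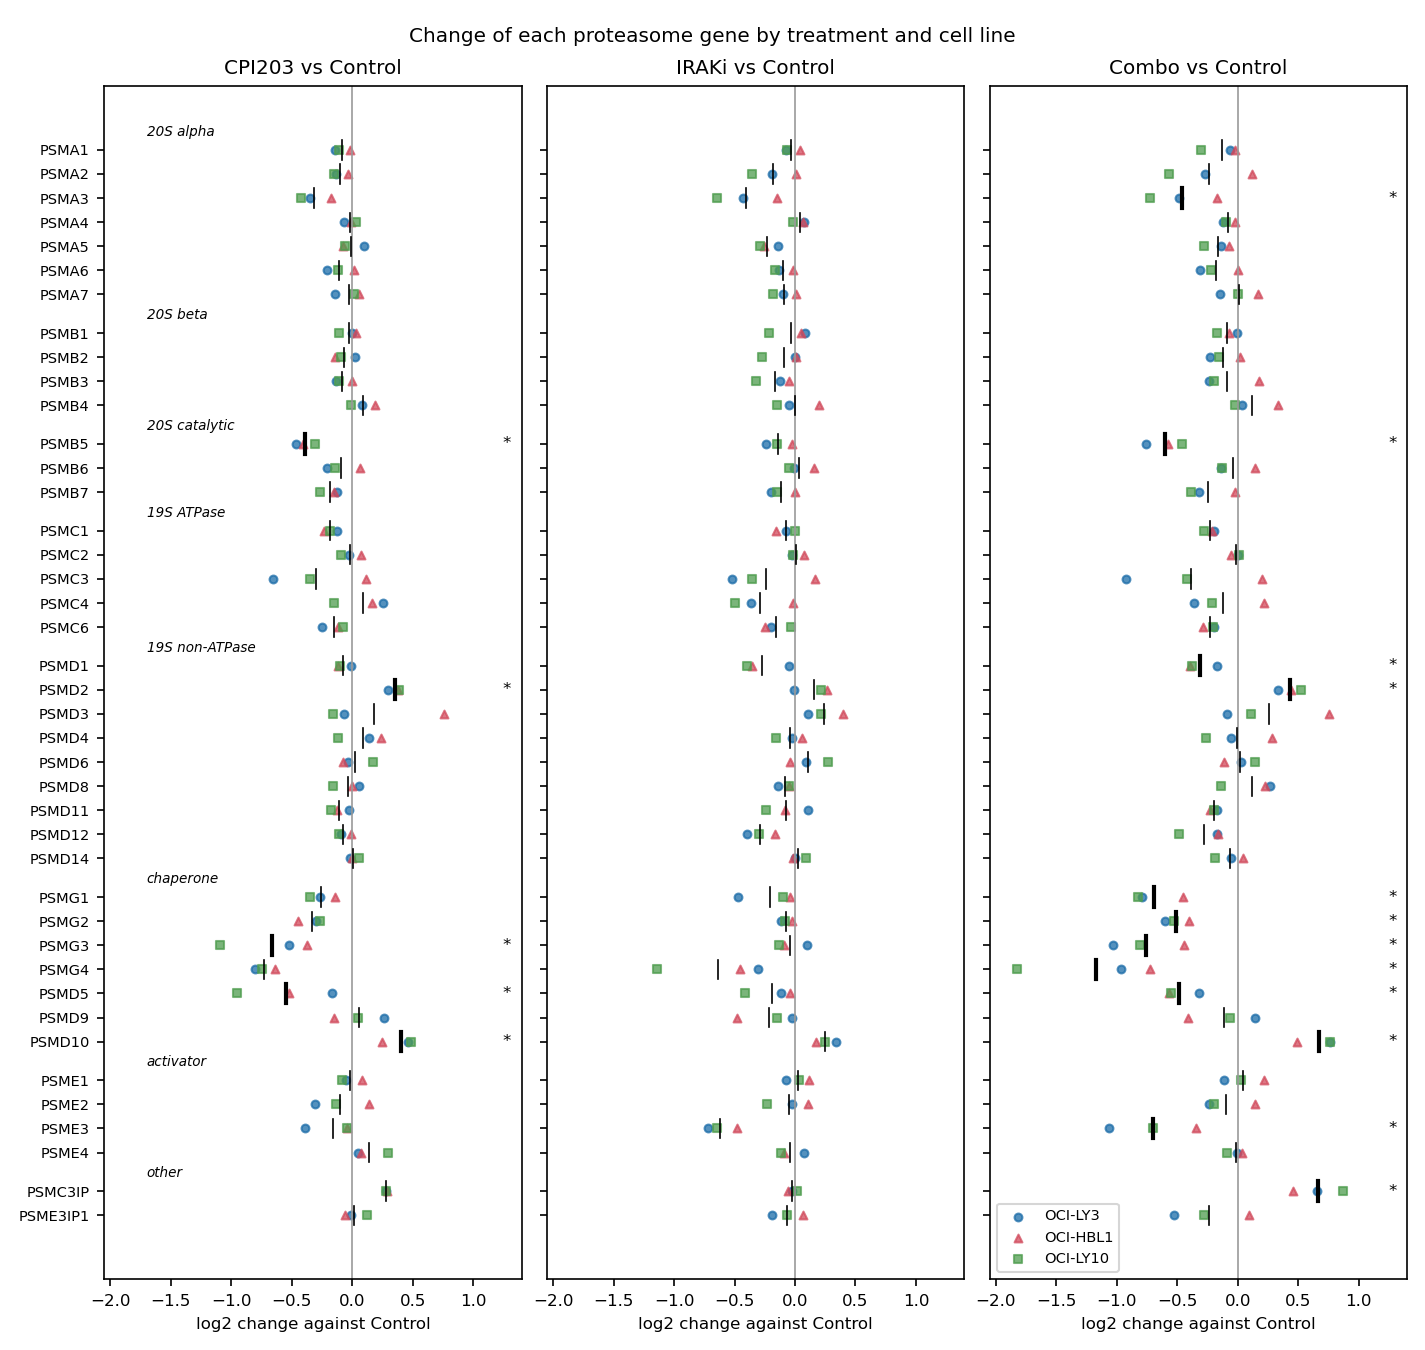
Change of the 41 tested members against Control (horizontal axis, log2) with CPI203, IRAKi and Combo, by role. Coloured points are the 3 cell lines, 1 array against 1 array; vertical ticks are the fitted change, and a thick tick with an asterisk passed limma's test. With Combo, 1 of the 28 subunits of the 26S proteasome, PSMB5 at -0.60, lies beyond 0.5 in size, and PSMG1 to PSMG4 lie between -0.51 and -1.17. Scaled to spike-ins the Combo tick of PSMD2 would lie at -0.053 and not to the right of 0.

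The 7 tested alpha subunits form the outer rings of the core, whose gate opens when a regulator docks. With Combo 1 of the 7 fell, 0 rose, and their median change was -0.16. The one that fell was PSMA3 (NCBI Gene 5684), the alpha7 subunit. In the order OCI-LY3, OCI-HBL1 and OCI-LY10, kept from here on, its Control levels were 11.70, 11.30 and 11.78, and its Combo levels 11.21, 11.13 and 11.05. All 3 Combo arrays were below all 3 Control arrays, and the fitted change was -0.46 (SE 0.12, adjusted p = 0.0179). The fall was smallest in OCI-HBL1, at -0.17, and largest in OCI-LY10, at -0.72. Without OCI-LY3 the adjusted p was 0.152 and without OCI-LY10 it was 0.184, while without OCI-HBL1 it was 0.0224. PSMA3 was at -0.32 with CPI203 (adjusted p = 0.123) and at -0.41 with IRAKi (adjusted p = 0.175), neither past the test. Its second probe set gave -0.42 with Combo.

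The remaining alpha subunits, PSMA1, PSMA2, PSMA4, PSMA5, PSMA6 and PSMA7, were not past the test in any treatment comparison, with Combo changes between -0.24 and 0.01. PSMA1 has a second probe set at a lower mean level, 8.75 against 11.61, and the 2 disagreed, at 0.73 and -0.13 with Combo. The 4 beta subunits without an active site, PSMB1, PSMB2, PSMB3 and PSMB4, changed by -0.12 to 0.12 with Combo, and 0 of 4 were called in any treatment comparison.

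Of the 3 catalytic beta subunits, one fell and the others were not past the test. PSMB5 (NCBI Gene 5693) is beta5, the chymotrypsin-like site and the main target of bortezomib. Its levels were 10.56, 10.19 and 10.35 in Control, 10.09, 9.78 and 10.04 with CPI203, 10.32, 10.16 and 10.20 with IRAKi, and 9.80, 9.61 and 9.88 with Combo. In each line Control was the highest array and Combo the lowest, and neither the CPI203 nor the Combo arrays overlapped the Control arrays. PSMB5 fell by 0.39 with CPI203 (SE 0.10, adjusted p = 0.0371) and by 0.60 with Combo, a 1.51-fold lower level (SE 0.10, adjusted p = 0.00224). With IRAKi its change was -0.14 (95% interval -0.37 to 0.10). All 5 probe sets of PSMB5 were lower with Combo, by -0.54 to -0.81. Without OCI-LY3 the Combo change was -0.52 with an adjusted p of 0.0583, and without the other 2 lines in turn the adjusted p was 0.0231 and 0.0252. The CPI203 call was lost without any single line, with adjusted p of 0.241, 0.160 and 0.159.

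The 250 bases before the start of PSMB5 are shown because it was the catalytic subunit that changed. The sequence is RefSeq's on GRCh38.p14, 5′ to 3′ on the gene's strand, and the capitals mark a CCAAT box (letters CCAAT) at positions 87 to 91 of the window.
PSMB5, chr14:23035221-23035470, - strand: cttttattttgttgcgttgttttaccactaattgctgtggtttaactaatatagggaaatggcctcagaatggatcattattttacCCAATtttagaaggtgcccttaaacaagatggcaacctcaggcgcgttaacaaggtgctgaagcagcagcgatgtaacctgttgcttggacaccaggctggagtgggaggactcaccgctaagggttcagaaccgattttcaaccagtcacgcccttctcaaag

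PSMB6, the caspase-like beta1 subunit, had Control levels of 11.00, 10.59 and 11.02 and Combo levels of 10.86, 10.74 and 10.89. Control and Combo overlapped, and the change was -0.04 with a 95% interval of -0.27 to 0.19 (adjusted p = 0.815). PSMB7, the trypsin-like beta2 subunit, was at 12.05, 11.95 and 12.31 in Control and at 11.73, 11.92 and 11.92 with Combo. Its Combo arrays lay below its Control arrays by a small margin, and the change of -0.24 was not past the test (95% interval -0.49 to 0.00, adjusted p = 0.124). The difference between PSMB5 and either of these subunits was not tested.

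The 19S particle has a base, with the ATPase ring and the large scaffold subunits, and a lid that carries the deubiquitinase. None of the 5 measured ATPases was called in a treatment comparison, and all 5 had a negative Combo change, from -0.38 to -0.02. The lowest was PSMC3, the Rpt5 ATPase, which read 10.96, 11.20 and 11.05 in Control and 10.03, 11.40 and 10.63 with Combo. It was lower with Combo in OCI-LY3 and OCI-LY10 and higher in OCI-HBL1, and its adjusted p was 0.135. PSMC1, PSMC2, PSMC4 and PSMC6 had Combo changes of -0.23, -0.02, -0.12 and -0.23.

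Among the 9 measured 19S subunits that are not ATPases, 1 rose and 1 fell with Combo. PSMD2 (NCBI Gene 5708) is Rpn1, the scaffold of the base that docks ubiquitin shuttles. Its levels were 10.89, 10.96 and 10.54 in Control, 11.19, 11.33 and 10.93 with CPI203, 10.88, 11.22 and 10.76 with IRAKi, and 11.22, 11.40 and 11.06 with Combo. Each line was higher with CPI203 and with Combo than in Control, and the Combo arrays did not overlap the Control arrays. PSMD2 rose by 0.35 with CPI203 (SE 0.10, adjusted p = 0.0477) and by 0.43 with Combo (SE 0.10, adjusted p = 0.00967), but scaled to the spike-ins these changes were 0.048 and -0.053, neither past the test. Leaving out a line ended both calls, with adjusted p of 0.0625, 0.0646 and 0.116 for Combo and 0.196, 0.195 and 0.258 for CPI203. Its other 2 probe sets gave 0.21 and 0.47 with Combo. PSMD1 (NCBI Gene 5707) is Rpn2, the other scaffold of the base, and it went the other way. Its levels were 11.14, 11.60 and 11.49 in Control and 10.96, 11.20 and 11.11 with Combo. The groups overlapped because the lines differ, but each line was lower with Combo, and PSMD1 fell by 0.32 (SE 0.11, adjusted p = 0.0455). This call was lost without any single line (adjusted p = 0.106, 0.221 and 0.235).

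PSMD14, or Rpn11, is the deubiquitinase that removes the chain as the substrate enters. It read 10.78, 10.85 and 10.73 in Control, 10.76, 10.85 and 10.79 with CPI203, 10.78, 10.84 and 10.83 with IRAKi, and 10.72, 10.90 and 10.55 with Combo. The groups overlapped, and the Combo change of -0.07 had a 95% interval of -0.30 to 0.17. PSMD4, the ubiquitin receptor Rpn10, had a Combo change of -0.01 (95% interval -0.28 to 0.26), from Control levels of 10.78, 10.68 and 10.54 to Combo levels of 10.73, 10.97 and 10.28. Its change was positive in OCI-HBL1, at 0.29, and negative in OCI-LY10, at -0.26. PSMD3, PSMD6, PSMD8, PSMD11 and PSMD12, which sit in the lid, had Combo changes between -0.28 and 0.26 and were not called. PSMD3 was 0.75 higher with Combo in OCI-HBL1, against -0.09 and 0.11 in the other lines. PSMD12 is covered by 4 probe sets, of which 3 had negative Combo changes and one, at 0.26, a positive one.

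Taken as one list, the 28 subunits of the 26S proteasome had 4 called members with Combo, 14.3% beside 32.1% of all genes, and 2 with CPI203, 7.14% beside 13.1%. With OCI-LY3 left out, 0 of the 28 were called with Combo, beside 15.8% of all genes. With OCI-HBL1 left out 3 were, beside 26.1%, and with OCI-LY10 left out 1, beside 17%. Trend and robust estimation called 8, beside 34.5%. The CPI203 count was 0 whichever line was left out, beside 1.65% to 5.49% of all genes. Their changes with Combo had a median of -0.12 and a median size of 0.15, against 0.29 over all genes, and 1 of the 28 was beyond 0.5 in size, against 30.8% of all genes tested. For all 28 the 95% interval lay within 2-fold of Control with CPI203, with IRAKi and with Combo, and with Combo it lay within 0.5 on the log2 scale for 20 of 28. Within the lines, the median Combo change of the 14 core subunits was -0.19, -0.01 and -0.21, and that of the 14 subunits of the 19S particle was -0.13, 0.00 and -0.20, so it was nearest 0 in OCI-HBL1. Scaled to the spike-ins, 21 of the 28 fell with Combo and 0 rose.

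**Figure D2:**
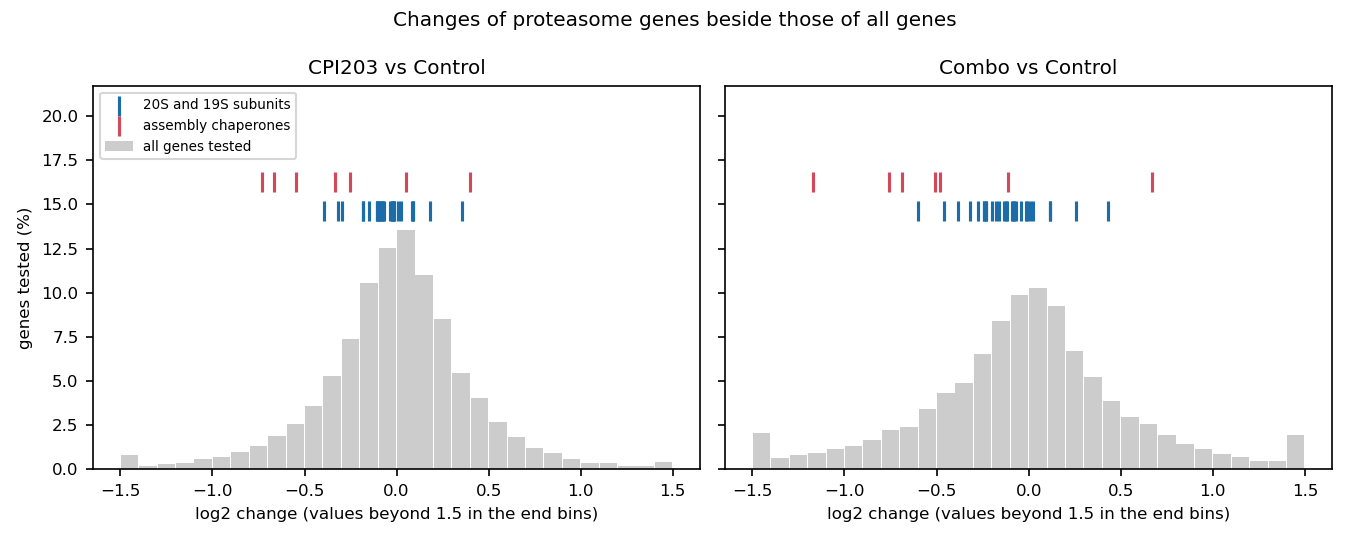
Share of the 13120 genes tested (vertical axis, %) by log2 change against Control (horizontal axis, values past 1.5 in the end bins) with CPI203 and Combo. Ticks above the bars are single genes. With Combo the 28 subunits of the 26S proteasome have a median of -0.12 and run from -0.60 (PSMB5) to 0.43 (PSMD2). Of the 7 chaperones, 6 lie left of 0 with Combo and PSMD10 lies at 0.67 on the right. Scaled to spike-ins, both lists' Combo medians are lower, at -0.60 and -0.99, beside -0.49 over all genes tested.

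Of the 7 assembly chaperones, 1 rose and 5 fell with Combo, 85.7% of the list beside 32.1% of all genes, with a median of -0.51, and their difference from the subunits as a list was not tested; with CPI203 1 rose and 2 fell, 42.9% beside 13.1%, with a median of -0.34. In the lines the Combo median was -0.60, -0.44 and -0.55. Scaled to the spike-ins, 0 rose and 6 fell with Combo, beside 513 risen and 5644 fallen among all 13120 genes. Without OCI-LY3 3 of the 7 were called with Combo, beside 15.8% of all genes. Without OCI-LY10 also 3 were, beside 17%, and without OCI-HBL1 5, beside 26.1%. With CPI203 0 of the 7 were called whichever line was left out, beside 1.65% to 5.49% of all genes. The 7 fall into helpers of the 20S core, PSMG1 to PSMG4, and helpers of the 19S base, PSMD5, PSMD9 and PSMD10.

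PSMG1 and PSMG2 form one pair of core chaperones, PAC1 and PAC2, and PSMG3 and PSMG4 form the other, PAC3 and PAC4; together they build the alpha ring. PSMG1 (NCBI Gene 8624) stood at 9.70, 10.05 and 9.45 in Control, 9.44, 9.90 and 9.10 with CPI203, 9.23, 10.01 and 9.36 with IRAKi, and 8.91, 9.60 and 8.63 with Combo. Combo was the lowest array in each of the 3 lines. PSMG1 fell by 0.69 with Combo, a 1.61-fold lower level (SE 0.13, adjusted p = 0.00287), and the call remained without each line in turn (adjusted p = 0.0409, 0.0151 and 0.0454). With CPI203 its change was -0.25 and with IRAKi -0.20, neither past the test (adjusted p = 0.223 and 0.491). PSMG2 (NCBI Gene 56984) stood at 11.14, 9.93 and 11.19 in Control, 10.84, 9.48 and 10.93 with CPI203, 11.02, 9.90 and 11.11 with IRAKi, and 10.54, 9.52 and 10.66 with Combo. All lines were lower with CPI203 and with Combo, and IRAKi was close to Control. PSMG2 fell by 0.51 with Combo (SE 0.11, adjusted p = 0.00521), and its change of -0.34 with CPI203 missed the threshold (adjusted p = 0.0645). Without OCI-LY3 the Combo p was 0.0839 and without OCI-LY10 it was 0.0662.

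Of this pair, the 250 bases before each start are shown because both genes fell with Combo and both windows hold an antioxidant response element. Its letters are TGACNNNGC, and it is the site that NFE2L1 and NFE2L2 are known to bind. Capitals mark that element in both, and in PSMG1 a CCAAT box too, with strands and build as above. The window of PSMG4, the member that fell most with Combo, held no such element.
PSMG1, chr21:39183452-39183701, - strand: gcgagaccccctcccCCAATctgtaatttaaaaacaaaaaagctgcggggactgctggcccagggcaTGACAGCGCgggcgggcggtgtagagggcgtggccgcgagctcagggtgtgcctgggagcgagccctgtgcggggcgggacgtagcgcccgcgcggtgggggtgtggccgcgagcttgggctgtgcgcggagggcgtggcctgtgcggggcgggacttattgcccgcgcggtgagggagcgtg
PSMG2, chr18:12658488-12658737, + strand: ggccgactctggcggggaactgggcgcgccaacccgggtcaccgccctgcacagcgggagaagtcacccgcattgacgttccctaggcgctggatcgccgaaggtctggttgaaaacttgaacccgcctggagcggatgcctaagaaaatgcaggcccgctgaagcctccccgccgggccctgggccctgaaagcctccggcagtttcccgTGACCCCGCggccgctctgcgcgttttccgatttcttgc

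PSMG3 (NCBI Gene 84262) stood at 7.66, 8.22 and 7.30 in Control, 7.14, 7.85 and 6.20 with CPI203, 7.76, 8.13 and 7.16 with IRAKi, and 6.63, 7.78 and 6.49 with Combo. It was lower in each line with CPI203 and Combo, and near Control with IRAKi. PSMG3 fell by 0.67 with CPI203 (SE 0.18, adjusted p = 0.0386) and by 0.76 with Combo (SE 0.18, adjusted p = 0.00975). The CPI203 call was lost without any line (adjusted p = 0.131, 0.0787 and 0.282), and the Combo call without OCI-LY3 (0.095) and without OCI-LY10 (0.0529). PSMG4 (NCBI Gene 389362) stood at 9.76, 8.74 and 9.61 in Control, 8.96, 8.10 and 8.87 with CPI203, 9.46, 8.29 and 8.47 with IRAKi, and 8.80, 8.02 and 7.78 with Combo. It was lowest with Combo in each line, with the lowest of the 12 arrays in OCI-LY10. PSMG4 fell by 1.17 with Combo, the largest change of any member in this comparison and a 2.25-fold lower level (SE 0.22, adjusted p = 0.00290). Its change was -1.83 in OCI-LY10, -0.96 in OCI-LY3 and -0.72 in OCI-HBL1, and without OCI-LY10 it was still called at -0.84 (adjusted p = 0.0168). With CPI203 its change of -0.73 missed the threshold (adjusted p = 0.0541), and with IRAKi it was at -0.63 (adjusted p = 0.217). Of the 6 probe sets of PSMG4, 5 had Combo changes between -1.17 and -0.43, and the other, with a mean level of 3.76, read 0.05.

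**Figure D3:**
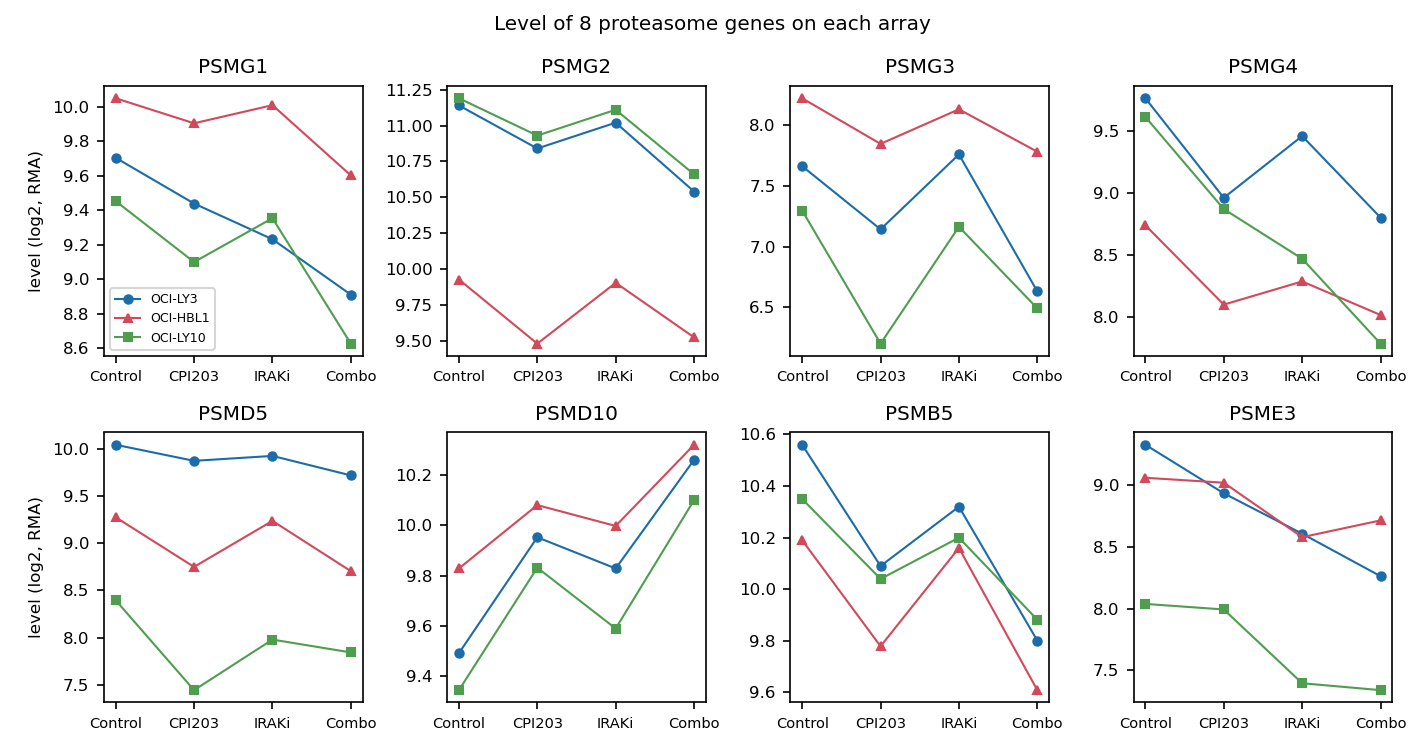
Log2 level (vertical axis) of PSMG1, PSMG2, PSMG3, PSMG4, PSMD5, PSMD10, PSMB5 and PSME3 on each of the 12 arrays by treatment (horizontal axis), with 1 point per array and a line joining the 4 arrays of each cell line. Each panel has its own scale; PSMG1, PSMG4 and PSMB5 are lowest with Combo in all 3 lines and PSMD10 is highest, at 10.10 to 10.32 against 9.34 to 9.83 in Control.

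The 19S base chaperones did not move as one. PSMD5 (NCBI Gene 5711), known as S5b, stood at 10.04, 9.27 and 8.40 in Control, 9.87, 8.75 and 7.44 with CPI203, 9.92, 9.24 and 7.98 with IRAKi, and 9.72, 8.70 and 7.84 with Combo. Each line was lower with CPI203 and Combo, against differences between lines that were larger than either change. PSMD5 fell by 0.55 with CPI203 (SE 0.15, adjusted p = 0.0420) and by 0.48 with Combo (SE 0.15, adjusted p = 0.0348). Both calls were lost without any single line, at 0.0964, 0.165 and 0.301 for CPI203 and 0.0807, 0.171 and 0.112 for Combo. Without OCI-LY10 the CPI203 change was -0.35. PSMD10 (NCBI Gene 5716), gankyrin, which also binds RB1 and MDM2, rose. It stood at 9.49, 9.83 and 9.34 in Control, 9.95, 10.08 and 9.83 with CPI203, 9.83, 10.00 and 9.59 with IRAKi, and 10.26, 10.32 and 10.10 with Combo. In each line Control was the lowest array and Combo the highest, and the Combo arrays did not overlap the Control arrays. PSMD10 rose by 0.40 with CPI203 (SE 0.10, adjusted p = 0.0338) and by 0.67 with Combo, 1.59-fold (SE 0.10, adjusted p = 0.00118), and its change with IRAKi was 0.25 (adjusted p = 0.291). The Combo call remained without each line (adjusted p = 0.0373, 0.00875 and 0.0313), and the CPI203 call did not (0.241, 0.0868 and 0.236). Scaled to the spike-ins, the change with Combo was 0.19 and with CPI203 0.09, neither past the test. Its second probe set gave 0.62 with Combo. PSMD9, known as p27, was not called in a treatment comparison, with a Combo change of -0.11 (adjusted p = 0.543). It read below the filter level on all 4 OCI-HBL1 arrays, and its Combo change was 0.15 in OCI-LY3 and -0.06 in OCI-LY10. The second probe set of PSMD9, at a mean level of 4.47 near the filter level, disagreed and gave 0.77 with Combo.

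The 250 bases before PSMD10, the chaperone that rose, hold a CCAAT box on the opposite strand, shown in capitals as ATTGG at positions 175 to 179, and no antioxidant response element.
PSMD10, chrX:108091543-108091792, - strand: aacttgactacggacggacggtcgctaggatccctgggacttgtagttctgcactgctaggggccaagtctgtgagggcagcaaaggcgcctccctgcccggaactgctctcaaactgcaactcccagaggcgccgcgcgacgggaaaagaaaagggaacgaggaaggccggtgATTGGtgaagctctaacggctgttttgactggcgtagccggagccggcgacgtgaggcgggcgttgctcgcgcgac

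The activators cap the core in place of the 19S particle. PSME1 and PSME2 form PA28 alpha-beta, which interferon gamma induces and which favours MHC class I peptides. PSME1 was at 11.83, 11.53 and 11.73 in Control and at 11.72, 11.75 and 11.76 with Combo, and PSME2 at 11.26, 11.60 and 11.63 in Control and at 11.03, 11.74 and 11.44 with Combo. The groups overlapped for both, with Combo changes of 0.05 (95% interval -0.19 to 0.28) and -0.10 (95% interval -0.37 to 0.18). PSME3 (NCBI Gene 10197) is PA28 gamma, the nuclear activator that works without ubiquitin. It stood at 9.33, 9.06 and 8.04 in Control, 8.94, 9.02 and 7.99 with CPI203, 8.61, 8.58 and 7.39 with IRAKi, and 8.26, 8.72 and 7.34 with Combo. Each line was lower with IRAKi and with Combo than in Control, and CPI203 was close to Control in OCI-HBL1 and OCI-LY10. PSME3 fell by 0.70 with Combo (SE 0.14, adjusted p = 0.00386). Its change with IRAKi was -0.62 (95% interval -0.92 to -0.31), with an unadjusted p of 0.00129 and an adjusted p of 0.102, and with CPI203 it was -0.16 (adjusted p = 0.501). Without OCI-LY3 the adjusted p for Combo was 0.0711, without OCI-LY10 it was 0.0511, and without OCI-HBL1 it was 0.0101. Its other 2 probe sets gave -0.38 and -0.55 with Combo. PSME4, the activator PA200, had changes of 0.14, -0.04 and -0.02 with CPI203, IRAKi and Combo and was not called.

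Of the genes that share only the letters, PSMC3IP (NCBI Gene 29893), the meiotic recombination protein HOP2, rose with Combo. It stood at 7.60, 8.27 and 7.86 in Control, 7.88, 8.55 and 8.14 with CPI203, 7.58, 8.20 and 7.88 with IRAKi, and 8.26, 8.72 and 8.74 with Combo. Each line was highest with Combo, and the IRAKi arrays were within 0.1 of Control. PSMC3IP rose by 0.66 (SE 0.11, adjusted p = 0.00194), and the call remained without each line (adjusted p = 0.0423, 0.0104 and 0.0419); scaled to the spike-ins the change was 0.18, not past the test. PSME3IP1, a partner of PSME3, was at -0.24 with Combo and was not called.

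Combo was also set against each agent alone, in comparisons that share the Combo arrays. The IRAKi arrays are labelled 6 h and the Combo arrays 24 h, so against IRAKi, and in the interaction term, the added CPI203 and the labelled time cannot be told apart. Against CPI203, 0 of 41 members were called by limma beside 4.66% of all genes. Of the members, 5 had an unadjusted p below 0.05, beside 2723 of all 13120 genes. The nearest to the threshold was PSME3, at -0.54 (SE 0.14, adjusted p = 0.0565), with line values of -0.67, -0.31 and -0.66. PSMG1 was at -0.43 (adjusted p = 0.0856) and PSMC3IP at 0.38 (adjusted p = 0.0882), and the other 2 of these 5 were PSMD10 at 0.27 and PSMD1 at -0.24. Against IRAKi, 2 members rose and 4 fell, 14.6% of the members beside 18.7% of all genes. PSMC3IP rose by 0.68 (adjusted p = 0.00388) and PSMD10 by 0.42 (adjusted p = 0.0208). PSMB5 fell by 0.46 (adjusted p = 0.0149), PSMG1 by 0.49 (adjusted p = 0.0264), PSMG2 by 0.43 (adjusted p = 0.0200) and PSMG3 by 0.72 (adjusted p = 0.0219). All 6 went the same way in all 3 lines. A call from 3 lines makes this likely, and it was not counted over all genes. Only PSMC3IP and PSMG3 were still called after a line was left out, and that was without OCI-HBL1 (adjusted p = 0.0207 and 0.0408); the adjusted p of the other 4 was between 0.0628 and 0.242 without one line or another. The interaction term, Combo minus CPI203 minus IRAKi plus Control, measures the departure from additive log2 changes. For this term 0 of 41 members were called by limma beside 0.00762% of all genes. An unadjusted p below 0.05 was found for 1 member, PSMC3IP at 0.40, beside 1085 of all 13120 genes. For PSMB5 the term was -0.07 (95% interval -0.40 to 0.26) and for PSME3 0.07 (95% interval -0.36 to 0.51).

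Of a list of 32 other genes of the ubiquitin and proteasome pathway, 28 were tested, and 5 rose and 4 fell with Combo, 32.1% of the list and 32.1% of all genes. SQSTM1, the p62 receptor that takes ubiquitinated cargo to autophagy, rose by 0.72 with Combo (SE 0.14, adjusted p = 0.00427) and by 0.59 with CPI203 (adjusted p = 0.0264). Its levels were 11.26, 11.96 and 11.50 in Control and 11.80, 12.47 and 12.61 with Combo, higher in each line, with overlap between the groups. ZFAND5, which stimulates the 26S proteasome, rose by 0.57 with Combo (adjusted p = 0.00720). AKIRIN2, which carries proteasomes into the nucleus, rose by 0.58 with Combo (adjusted p = 0.00593) and by 0.80 against IRAKi (adjusted p = 0.00307), where SQSTM1 rose by 0.51 (adjusted p = 0.0348) and ECPAS fell by 0.63 (adjusted p = 0.00694). NFE2L2 and UBQLN1 were the other 2 that rose with Combo, by 0.52 and 0.32. Scaled to the spike-ins, SQSTM1, ZFAND5 and AKIRIN2 were at 0.23, 0.09 and 0.10, NFE2L2 was at 0.034, and UBQLN1 turned to -0.17, none past the test. ECPAS, or ECM29, a 26S binding protein, fell by 0.71 with Combo (SE 0.12, adjusted p = 0.00189) and by 0.50 with CPI203 (adjusted p = 0.0254). It was between 8.85 and 9.33 in Control and at 8.70 or below with Combo, with no overlap. UCHL5, a deubiquitinase of the 19S particle, fell by 0.71 (adjusted p = 0.00311) and was the only one called against CPI203, at -0.59 (adjusted p = 0.0385), a call lost without any line (adjusted p = 0.112 to 0.256). UBQLN4, a ubiquitin shuttle, fell by 0.41 (adjusted p = 0.0228), and TXNL1, a thioredoxin bound to the 19S particle, by 0.32 (adjusted p = 0.0358). Only ECPAS and UCHL5 were called with Combo without each line in turn. AKIRIN2, NFE2L2 and ZFAND5 were called without OCI-HBL1 but not without OCI-LY3 or OCI-LY10 (adjusted p = 0.0579 to 0.0864), and SQSTM1 was not called without OCI-LY10 (0.0506). TXNL1, UBQLN1 and UBQLN4 were not called without any line (0.0616 to 0.230). Against IRAKi, AKIRIN2 and ECPAS were called without OCI-HBL1 but not without the other lines (0.0537 to 0.108), and SQSTM1 was not called without any line (0.0705 to 0.226). Both CPI203 calls were lost without any line, at 0.109 to 0.163. With IRAKi 0 of 28 were called. The inducible catalytic subunits PSMB8 and PSMB9, the core maturation factor POMP and NFE2L1, the factor known to raise proteasome genes when the protease is blocked, were not past the test in any treatment comparison. The Combo changes of POMP and NFE2L1 were -0.09 and -0.07. Scaled to the spike-ins, where the median gene moved by -0.49, they were -0.57 and -0.56. Both then passed limma's test (adjusted p = 0.0343 and 0.0453). Under that scaling PSMB9 also passed, at -0.70 (adjusted p = 0.0257), and PSMB8, at -0.63, did not (adjusted p = 0.0596). PSMB8 read 3.52 to 4.58 and PSMB9 between 3.89 and 5.001 on the OCI-LY10 arrays, near the filter level, while both were at 9.37 or above in the other lines. PSMB8 had a Combo change of -0.14, made of -0.85, -0.35 and 0.77, and without OCI-LY10 it was -0.60 (adjusted p = 0.0622). PSMB9 was at -0.22, and at -0.17 without OCI-LY10.

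The promoter windows, 250 bases before to 50 after the start, were found in the RefSeq table for 37 of the 43 members and were searched on both strands. The antioxidant response element TGACNNNGC was in 12 of the 37, 32.4%, against 13.6% of the 27305 promoters of the table. It was in 4 of the 6 chaperone windows (PSMG1, PSMG2, PSMD5 and PSMD9) and in 5 of the 25 windows of core and 19S subunits. PSMA8 and PSMB11 were counted with these subunits. The activators PSME1, PSME2 and PSME4, not called with Combo, also held the element, and the activator PSME3, which fell, did not. Of the members that fell with Combo, 8 had a window and 4 of these held the element. PSMG4, which fell most, was among those without it. CCAAT was in 48.6% of the members' windows against 35.7% of all, and the E-box CACGTG in 10.8% against 7.43%. These are matches of letters and show no binding, and no member was tested for a link between a match and its change.

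The cell lines differed in many members, most widely in the chaperones PSMD9, PSMD5 and PSMG2. Here the 4 arrays of a line are compared over the 4 treatments; they are 1 line each, so the p-values measure only the spread over these arrays. Between OCI-LY3 and OCI-HBL1, 19 of 41 members were called by limma, 46.3%, beside 47.2% of all genes. Between OCI-LY10 and OCI-HBL1, 26 were called, 63.4% beside 48.5%, of which 6 were higher and 20 lower in OCI-LY10. Between OCI-LY3 and OCI-LY10, 15 were called, 36.6% beside 46.6%. At an adjusted p below 0.01, OCI-LY10 and OCI-HBL1 differed in 16 members beside 36.6% of all genes, and OCI-LY3 and OCI-LY10 in 8 beside 33.9%.

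The widest difference was in PSMD9 (NCBI Gene 5715), the 19S base chaperone p27. It stood between 8.97 and 9.26 on the OCI-LY3 arrays, between 8.02 and 8.22 on the OCI-LY10 arrays and between 3.55 and 4.04 on the OCI-HBL1 arrays. All 4 OCI-HBL1 arrays were below the filter level, so the ratio is only bounded: against that level OCI-LY3 was at least 29.6-fold higher and OCI-LY10 at least 15.2-fold higher. PSMD9 passed the filter through the other 2 lines, so its difference from OCI-HBL1 is a description and no test, although it is counted among the called members. The second probe set of PSMD9 had mean levels of 5.08 in OCI-LY3, 4.61 in OCI-LY10 and 3.72, again below the filter level, in OCI-HBL1. The 250 bases before its start are shown because no other tested member came so near the background in one line. Capitals mark an antioxidant response element at positions 149 to 157, another on the opposite strand at 102 to 110, and an E-box at 120 to 125.
PSMD9, chr12:121888540-121888789, + strand: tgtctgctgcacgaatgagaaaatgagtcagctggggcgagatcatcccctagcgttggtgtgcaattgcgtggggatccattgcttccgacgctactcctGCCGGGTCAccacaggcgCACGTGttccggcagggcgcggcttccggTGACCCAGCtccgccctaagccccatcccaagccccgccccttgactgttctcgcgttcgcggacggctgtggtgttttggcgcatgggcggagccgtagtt

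Other chaperones also set the lines apart. PSMD5 ran from 9.72 to 10.04 in OCI-LY3, from 8.70 to 9.27 in OCI-HBL1 and from 7.44 to 8.40 in OCI-LY10, with no overlap, and it was 1.97 higher in OCI-LY3 than in OCI-LY10 (SE 0.13, adjusted p = 2.12e-06). PSMG2 was 9.48 to 9.93 in OCI-HBL1 and lower there than in OCI-LY3 and OCI-LY10, where it was 10.54 to 11.14 and 10.66 to 11.19. The differences were 1.17 (SE 0.09, adjusted p = 5.59e-06) and 1.26 (SE 0.09, adjusted p = 3.03e-06), and the difference between OCI-LY3 and OCI-LY10, -0.09, was not past the test. PSMG3 was highest in OCI-HBL1, with differences of -0.70 for OCI-LY3 (SE 0.15, adjusted p = 0.00413) and -1.21 for OCI-LY10 (SE 0.15, adjusted p = 1.35e-04) against it. PSMG4 was 0.96 higher in OCI-LY3 than in OCI-HBL1 (SE 0.19, adjusted p = 0.00198).

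Among subunits and activators the widest difference was the -1.16 of PSME3, larger in size than the 0.96 of the chaperone PSMG4. PSMA7, the alpha4 subunit, was at -1.01 in OCI-LY10 against OCI-HBL1, on arrays of 10.88 to 11.08 against 11.98 to 12.14. PSMA2, the alpha2 subunit, was 0.91 higher in OCI-LY10 than in OCI-HBL1 (SE 0.12, adjusted p = 1.35e-04) and 0.77 higher in OCI-LY3. PSMA5 differed by -0.76 in OCI-LY3 against OCI-HBL1 (SE 0.09, adjusted p = 7.84e-05), and PSMC3 by -0.89 (SE 0.15, adjusted p = 9.90e-04). PSME3 was lowest in OCI-LY10, at 7.34 to 8.04, with a difference of -1.16 against OCI-HBL1 (SE 0.12, adjusted p = 3.30e-05), and it was 1.09 higher in OCI-LY3 than in OCI-LY10. PSME4 was highest in OCI-HBL1, with OCI-LY3 at -0.69 and OCI-LY10 at -0.56 against it. Between OCI-LY3 and OCI-LY10, the lowest differences were -0.72 for PSMC2, -0.47 for PSMB2 and -0.37 for PSME2 (adjusted p = 9.27e-05, 0.00394 and 0.0161). The catalytic subunits were closer: PSMB5 was 0.26 higher in OCI-LY3 than in OCI-HBL1, PSMB6 0.26 higher in OCI-LY10 than in OCI-HBL1, and PSMB7 was called between no pair of lines.

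**Figure D4:**
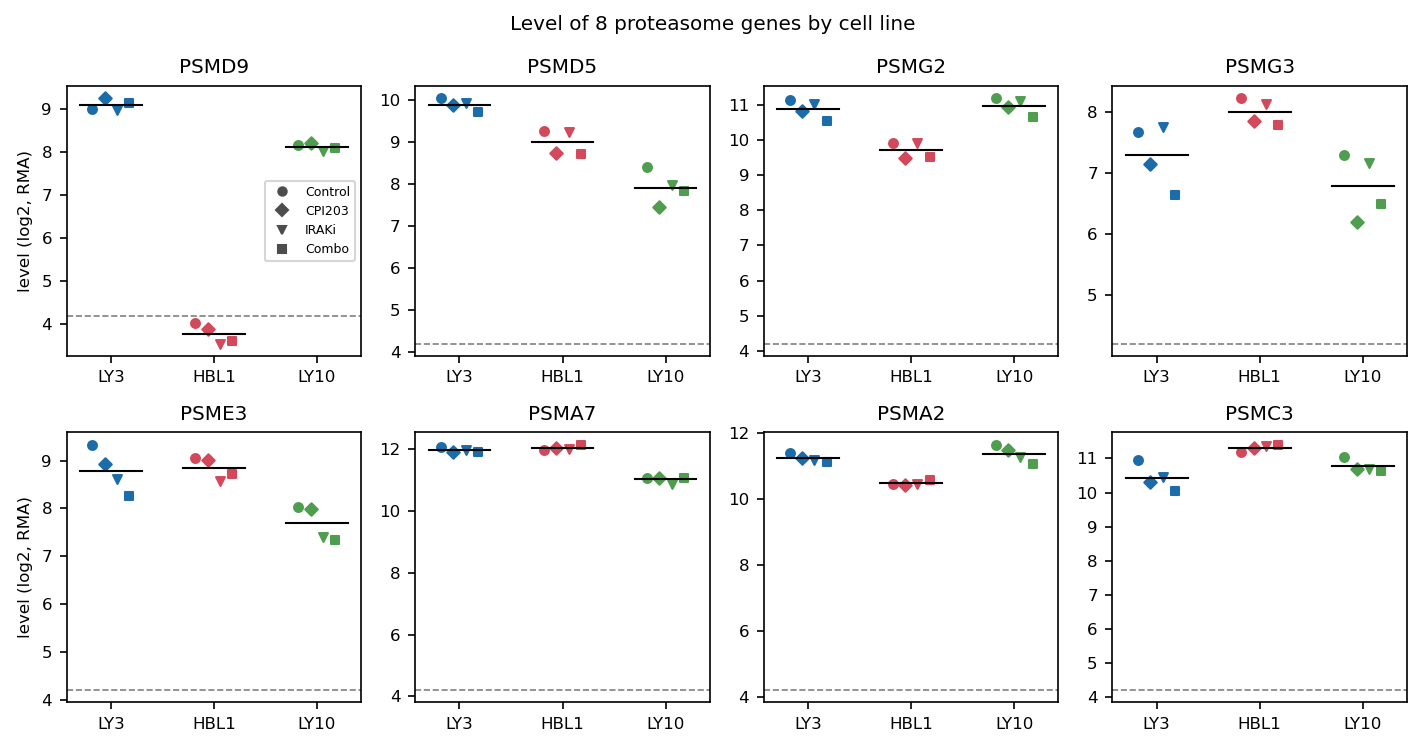
Log2 level (vertical axis) of 8 members by cell line (horizontal axis: LY3, HBL1 and LY10 stand for OCI-LY3, OCI-HBL1 and OCI-LY10). Each point is 1 array with its shape giving the treatment, bars are the mean of the 4 arrays, and the dashed line is the filter level of 4.20. PSMD9 in OCI-HBL1 lies under that line at 3.55 to 4.04. Only 1 line stands apart for PSMA7, OCI-LY10 at 10.88 to 11.08, and for PSMA2, OCI-HBL1 at 10.42 to 10.57, and the other lines overlap.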

How the data were processed

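Total RNA of 12 samples was read on 12 Affymetrix arrays. The authors made the deposited log2 values with RMA in Affymetrix Expression Console 1.1, per the submitters' processing notes; RMA corrects background, quantile-normalizes arrays and summarises probes. For the probe library and its build, the sources used here give nothing. Of 49386 probe sets, 45253 carried 1 gene; several-gene (1327) and control probe sets (93) were left out. Each gene was taken from its brightest probe set and tested if above the 40th percentile of all values (4.20) on at least 3 arrays. All 12 arrays were fitted with limma 3.58.1 in R 4.3.3, with terms for treatment and line and moderated by eBayes (residual df 6, prior df 3.66); two-sided p-values were Benjamini-Hochberg adjusted across 13120 genes. The code was tested on simulated data. Each line gave 1 array to each group, so the line pairs the samples and is a term of the model. The number of arrays limits the precision. Quantile normalization removes a shift common to all genes.

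The members, roles, pathway list, markers and motifs were chosen with earlier results of these data known. Values are given for called members (the 4 highest and 4 lowest changes of a comparison, and 3 and 3 between lines), and always for the catalytic subunits, PSMD14, PSMD4 and PSME1 to PSME3; for the pathway list for the 3 highest and 3 lowest called genes and PSMB8, PSMB9, POMP and NFE2L1. Further members named with values, among them PSMA1, PSMA3, PSMC3, PSMD1, PSMD3, PSMD12, PSME4 and the rest of the called pathway genes, were chosen after their values were seen. Alternatives were averaged probe sets, no filter or the 60th percentile, spike-in scaling, cyclic loess, trend and robust estimation, no line term, only the compared groups, adjusted p below 0.01, and left-out lines, treatments or 1 array.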

Additional observations from a re-analysis of the deposited data

How the results depend on the processing

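Over the called members and pathway genes and those the naming rule always includes, 1190 values kept direction and side of the threshold under the alternatives run, 184 lost the call, 13 gained one, and 69 uncalled values changed sign. Scaled to the poly-A spike-ins, 2 called values reversed with Combo, PSMD2 at -0.053 and UBQLN1 at -0.17. With CPI203, the 2 risen members became 1 with no filter, cyclic loess or without the OCI-LY10 IRAKi array, and 0 with spike-in scaling, only the groups compared, adjusted p below 0.01, or no replicate block. The 3 fallen became 5 with the 60th percentile filter or cyclic loess and 6 with trend and robust estimation. They became 1 with only the groups compared or without that array, and 0 at adjusted p below 0.01 or with no replicate block. Over all genes, the share called with CPI203 was 8.35% with no filter, 22.7% with the 60th percentile filter and 13.7% with cyclic loess. It was 17.2% with trend and robust estimation, 13.4% with spike-in scaling and 12% without that array, against 13.1% in the main fit. With only the groups compared it was 9.1%, at adjusted p below 0.01 3.44%, and with no replicate block 0.0305%. With IRAKi, trend and robust estimation called 2, beside 1.68% of all genes. With Combo, the 3 risen became 0 and the 9 fallen 30 with spike-in scaling, which moves all genes down; both became 0 with no replicate block, where limma called 465 genes in all and 2139 had an unadjusted p below 0.05, and the fallen 4 with only the groups compared. Combo against CPI203 gave 1 with the mean of probe sets or the 60th percentile filter and 2 with trend and robust estimation. For Combo against either agent alone, shares over all genes under the alternatives are not given, so these counts show nothing particular to the members. Combo against IRAKi gave 4 risen with the mean of probe sets, 1 with only the groups compared, without that array or at adjusted p below 0.01, and 0 with spike-in scaling or no replicate block; fallen were 1 without that array and 0 with only the groups compared, adjusted p below 0.01 or no replicate block. Leaving out one line gave 0 risen and 0 fallen with CPI203, 2 to 8 fallen with Combo, and 0 to 1 risen and 0 to 1 fallen for Combo against IRAKi. OCI-LY10 against OCI-HBL1 gave 16 at adjusted p below 0.01. OCI-LY3 against OCI-LY10 gave 9 with spike-in scaling, 8 at adjusted p below 0.01, and 8 to 12 when a treatment was left out. Over all genes, limma called 1723, 22 and 4214 with CPI203, IRAKi and Combo, against 4, 0 and 465 with no replicate block. The IRAKi count was 220 with trend and robust estimation, 66 with the 60th percentile filter, 13 with the mean of probe sets, and 0 with only the groups compared (1995 at an unadjusted p below 0.05), without the OCI-LY10 IRAKi array (1601) or without any line (1227 to 1791). The Combo count was 2163 with only the groups compared and 2072 to 3420 without one line, and the CPI203 count 216 to 720 without one line. The cause of these shifts was not tested.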
